A study of Mus musculus with 23 samples.

Results

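The 5 genes described here, Ly6a, Ly6c1, Ly6c2, Ly6e and Ly6i, are members of the Ly6 cluster on mouse chromosome 15. They were listed by symbol and matched through a GENCODE annotation to 5 of the 26869 gene identifiers of the expression table, and all 5 entered every model across genes. The genes were chosen by family with results of these tumors in view, among them the rise of Ly6i from isotype to anti-PD-1 tumors over all lines, so differences between antibodies are described without a test. The tumors were MC38, a colon carcinoma line of C57BL/6 origin, grown under the skin of female F1 mice that all carried 1 set of C57BL/6J chromosomes and 1 set from a Collaborative Cross (CC) line, a recombinant inbred line that mixes the genomes of 8 founder strains. The CC parents were CC001/UncJ, CC002/UncJ, CC075/UncJ, CC036/UncJ, CC079/TauUncJ and CC080/TauUncJ, and the hosts are called CC001F1 and so on. The study's text, not the sample labels, names the first 3 responder strains (R) and the last 3 non-responder strains (NR) for the response of MC38 to anti-PD-1 (aPD1). Mice were injected at 8 to 12 weeks of age, and at a tumor size of 75 to 110 mm3 they were given 200 µg of the isotype control antibody 2A3 or of the aPD1 antibody 29F.1A12, once. Whole tumors were taken 48 h later, 2 for each host and antibody and 1 for CC080F1 with aPD1, 23 in all (12 R and 11 NR). Poly(A) RNA libraries held 14494014 to 71868253 expected counts, with 6 libraries (2 R and 4 NR) at or under 18354585 and the other 17 at or above 37242363. Values below are normalized counts, the expected counts of a gene divided by the DESeq2 size factor of its library. All markers of macrophages (8), T cells (7) and monocytes (7) that were listed were measured, so the libraries hold RNA of tumor and host cells together, and in such bulk tissue fewer cells of a type and less RNA per cell cannot be told apart.

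Ly6 proteins are small, cysteine-rich proteins held on the cell surface by a glycolipid anchor, and several of them are used to tell white blood cells apart. Ly6a is Sca-1, a marker of blood stem cells and of activated lymphocytes, and Ly6c1 and Ly6c2 encode the Ly6C antigen of inflammatory monocytes, of some T cells and of endothelium. Ly6e is a widely made member known for its effects on virus entry, and Ly6i is a less studied member close to Ly6a and Ly6c in sequence. Interferons induce several of these genes. Inbred mouse strains carry different haplotypes of this cluster, with strain differences in Ly6A and Ly6C on lymphocytes.

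On GRCm38 the members lie within 156.9 kb of chromosome 15. Ly6e (ENSMUSG00000022587) occupies 74955051 to 74959905 on the plus strand. The other 4 are on the minus strand, Ly6i (ENSMUSG00000022586) at 74979534 to 74983430, Ly6a (ENSMUSG00000075602) at 74994877 to 74998031, Ly6c1 (ENSMUSG00000079018) at 75044018 to 75048830 and Ly6c2 (ENSMUSG00000022584) at 75108158 to 75111970. How alike these genes are sets how well 100-base reads can be given to one of them, so the coding sequences of the closest pairs are shown. They are the C57BL/6J reference sequences of the principal transcripts in GENCODE vM21, 5′ to 3′, the first 300 bases from the start codon. Capitals mark the bases that differ, 47 between Ly6i and Ly6a in the first pair and 7 between Ly6c1 and Ly6c2 in the second.
Ly6i: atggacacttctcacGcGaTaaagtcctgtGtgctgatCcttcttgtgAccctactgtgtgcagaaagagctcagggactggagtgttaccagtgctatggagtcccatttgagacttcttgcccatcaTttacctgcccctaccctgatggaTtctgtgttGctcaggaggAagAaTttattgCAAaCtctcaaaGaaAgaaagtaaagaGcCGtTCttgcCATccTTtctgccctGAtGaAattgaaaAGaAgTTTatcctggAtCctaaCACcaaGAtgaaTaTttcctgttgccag
Ly6a: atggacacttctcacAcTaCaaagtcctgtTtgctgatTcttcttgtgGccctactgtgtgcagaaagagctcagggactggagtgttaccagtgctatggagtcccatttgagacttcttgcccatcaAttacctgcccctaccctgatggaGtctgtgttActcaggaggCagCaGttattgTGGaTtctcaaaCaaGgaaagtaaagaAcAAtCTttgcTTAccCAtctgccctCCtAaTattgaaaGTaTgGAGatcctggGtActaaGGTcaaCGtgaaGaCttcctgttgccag
Ly6c1: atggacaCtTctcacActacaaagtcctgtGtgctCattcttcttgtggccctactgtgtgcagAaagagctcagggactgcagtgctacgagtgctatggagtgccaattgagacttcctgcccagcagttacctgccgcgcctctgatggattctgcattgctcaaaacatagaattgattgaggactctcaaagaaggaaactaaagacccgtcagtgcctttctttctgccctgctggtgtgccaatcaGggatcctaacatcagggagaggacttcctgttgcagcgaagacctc
Ly6c2: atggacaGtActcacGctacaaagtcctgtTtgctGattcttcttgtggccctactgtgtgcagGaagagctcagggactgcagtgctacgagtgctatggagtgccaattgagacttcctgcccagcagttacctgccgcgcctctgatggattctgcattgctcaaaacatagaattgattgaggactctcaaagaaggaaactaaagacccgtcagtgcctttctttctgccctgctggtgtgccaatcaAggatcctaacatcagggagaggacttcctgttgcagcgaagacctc

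Ly6c1 and Ly6c2 matched at 387 of 396 coding bases (97.7%). Ly6i and Ly6a, both with 405 coding bases and aligned without a gap, differed at 55 (86.4% identity), and Ly6i was 81.7% identical to Ly6c1 and 81.5% to Ly6c2. Ly6e stood apart, with 50% to 52.8% identity to the other 4 over alignments with gaps. Of all 100-base stretches of the principal Ly6c1 transcript, 15.3% (114 of 745) also occurred in another gene, in each case Ly6c2, and 15.8% of those of Ly6c2 (114 of 723) were shared in the same way. No 100-base stretch of Ly6e, Ly6i or Ly6a was found in a transcript of another gene, while at 50 bases 8.1% of Ly6a and 5.0% of Ly6i stretches were. The deposited counts showed the same order. Expected counts that were not whole, which arise when reads are split between genes, occurred for Ly6c1 and Ly6c2 in 21 of 23 tumors each, for Ly6a in 6, and for Ly6i and Ly6e in 0. The 6 for Ly6a were all 4 CC075F1 tumors and 2 of the 4 CC001F1 tumors, both R lines, and the part of read splitting in the class difference of Ly6a was not tested. The division of reads between Ly6c1 and Ly6c2 is therefore uncertain in what follows. Sequences of the other founder strains and the founder haplotype that each CC parent carries here were not analysed here.

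Ly6i varied most between host lines. In CC001F1 tumors it stood at 1004 and 826 with isotype and 626 and 1698 with aPD1, which corresponded to 385 to 2077 expected counts. In CC002F1 it was 12.9 and 9.53 with isotype and 92.5 and 31.6 with aPD1, and in CC075F1 32.3 and 58.3 with isotype and 229.5 and 82.1 with aPD1. The NR lines overlapped with CC002F1 in Ly6i, and 1 of their tumors was at 0. CC036F1 tumors held 26.1 and 15.9 with isotype and 58.6 and 33.9 with aPD1. CC079F1 tumors held 0 and 19.8 with isotype and 23.7 and 40.3 with aPD1, where the 0 allows up to 3.1 normalized counts (3 expected counts, for counting error only). CC080F1 tumors held 18 and 15.4 with isotype and 18.7 with aPD1. All 4 CC001F1 tumors were therefore above all 19 others, which ran from 0 to 229.5 with a median of 26.1, and the lowest CC001F1 tumor was 2.73 times the highest of the others. Of 26350 genes tested, 0.0607% had all 4 CC001F1 tumors above the other 19. The mean Ly6i level of CC001F1 was 24.1 times that of the other lines together, 43.9 times with isotype and 17.1 times with aPD1, and 83.5% of all normalized Ly6i counts came from these 4 tumors.

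**Figure D1:**
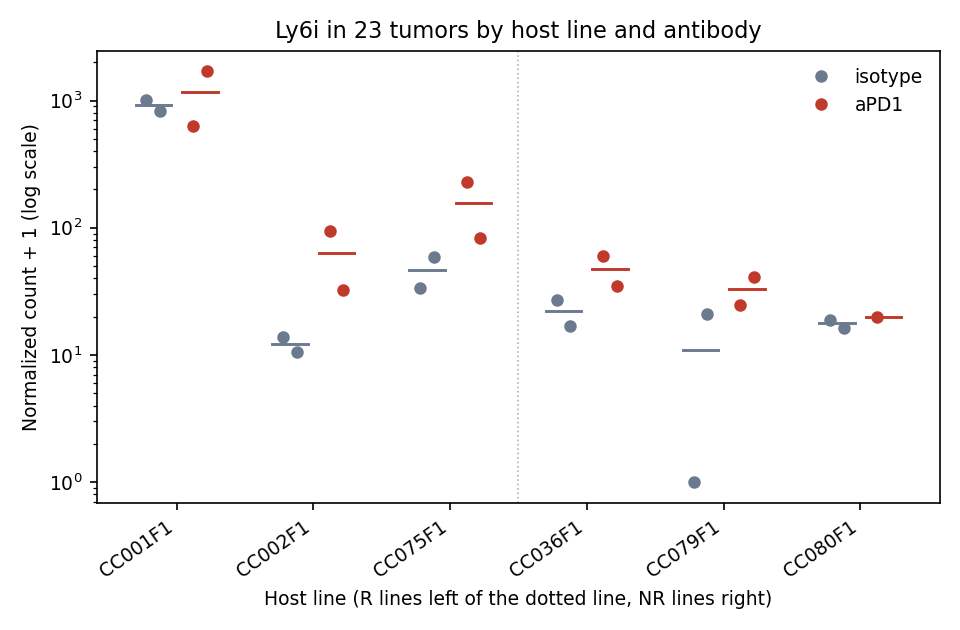
Ly6i in each of the 23 tumors, as normalized count plus 1 on a log axis, by host line (R lines left and NR lines right of the dotted line) and antibody (color); each point is 1 tumor. The 4 CC001F1 tumors sit between 626 and 1698, above every other tumor, of which the highest is a CC075F1 tumor with aPD1 at 229.5.

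The 6 host lines differed in Ly6i by a DESeq2 likelihood ratio test of line beside antibody (adjusted p = 2.46e-31), with 5.98 log2 units between the highest and the lowest line. The same test called 16% of 19198 genes. Between lines, Ly6i was higher in CC001F1 than in each of the other 5. The log2 difference was 5.24 ± 0.61 (SE) against CC002F1 (adjusted p = 3.51e-14 by DESeq2, 0.326% of genes called in that pair) and 3.68 against CC075F1 (adjusted p = 1.22e-06, 0.313% called). It was 5.15 against CC036F1 (adjusted p = 9.36e-14, 13.6% called), 5.98 against CC079F1 (adjusted p = 8.21e-18, 6.2% called) and 5.69 against CC080F1 (adjusted p = 2.99e-13, 1.3% called). Of the 10 pairs among the other 5 lines, 1 passed, CC075F1 above CC079F1 by 2.30 (adjusted p = 0.0115, 5.55% called). The tumors are labelled as biological replicates, and p-values here measure the spread between tumors. These p-values, and those of the tests below, do not allow for the choice of the members with results of these tumors in view. Without CC001F1, a refit chosen after the data were seen, the lines still differed in Ly6i, with a spread of 2.33 (adjusted p = 0.00504).

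Marker sums describe the cell content of the CC001F1 tumors beside that of all tumors. The summed normalized counts of the 8 macrophage markers were 112410 to 146556 in CC001F1 tumors and 57695 to 186065 over all 23. The 7 monocyte markers summed to 7966 to 8912 in CC001F1, within the 5807 to 15263 of all tumors, and the 7 T cell markers to 931.4 to 2577 within 230.3 to 3475. Sums of 5 skeletal muscle genes ranged from 18.8 to 19466 among the 4 CC001F1 tumors and from 12.71 to 19466 over all 23. No list of dendritic cell genes was used. The part of cell content in the Ly6i difference between lines was not tested.

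Ly6a, the second most abundant of the 5 per length, was highest in tumors of the R lines with aPD1. Its values were 2813 and 2959.5 with isotype and 2414 and 9178 with aPD1 in CC001F1, and 2861 and 2287 with isotype and 5981 and 4314 with aPD1 in CC002F1. CC075F1 tumors held 2065.5 and 1689 with isotype and 9838 and 4733 with aPD1. In CC002F1 and CC075F1 both aPD1 tumors were above both isotype tumors, as for 23.4% and 15.5% of all genes. In CC001F1, by contrast, 1 aPD1 tumor was the lowest of the 4. CC036F1 tumors held 1160.5 and 1345 with isotype and 2967 and 1829.7 with aPD1 and CC079F1 tumors 598 and 563 with isotype and 1317 and 1832 with aPD1. In these NR lines too both aPD1 tumors were above both isotype tumors, as for 16.6% and 18% of all genes. In CC080F1, Ly6a was 3687 and 1203.5 with isotype and 1649.8 with aPD1, and 1 isotype tumor of this line exceeded the other tumors of the NR lines. Over all tumors Ly6a spanned 17.5-fold, from 563.0 in a CC079F1 isotype tumor to 9838 in a CC075F1 aPD1 tumor. The lines differed (adjusted p = 0.000428 by the DESeq2 likelihood ratio test, spread 2.09 log2 units), and CC079F1 was below CC001F1, CC002F1 and CC075F1 by 2.09, 1.92 and 2.01 log2 units (adjusted p = 0.000282, 0.00214 and 0.000518). Without CC079F1 the line test no longer called Ly6a (spread 1.24, adjusted p = 0.297 by DESeq2). With the deep libraries alone it did not call Ly6a either (spread 2.199, adjusted p = 0.1035 by DESeq2).

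Ly6e had the most even levels, with a within-group SD of 0.26 log2 units against 0.47 to 1.13 for the other members. It stood at 10481 and 10939 with isotype and 11357 and 20385 with aPD1 in CC001F1. CC002F1 tumors held 10554 and 8712 with isotype and 15625 and 12968 with aPD1 and CC075F1 tumors 12075 and 12423 with isotype and 19916.5 and 12722 with aPD1. In these R lines each aPD1 tumor was above both isotype tumors of its line. The same held for 14.9% of all genes in CC001F1, 23.4% in CC002F1 and 15.5% in CC075F1. In the NR lines Ly6e was 8065 and 8379.9 with isotype and 9687 and 8653 with aPD1 in CC036F1 and 6669.7 and 6982 with isotype and 8703 and 10399 with aPD1 in CC079F1. Each aPD1 tumor was above both isotype tumors in CC036F1 and CC079F1 too, as for 16.6% and 18% of all genes. CC080F1 tumors held 11297 and 9285 with isotype and 9244 with aPD1, so that the single aPD1 tumor was just below both isotype tumors. Ly6e spanned 3.06-fold in all and differed between lines (adjusted p = 8.52e-06 by the DESeq2 likelihood ratio test, spread 0.81). CC075F1 was above CC079F1 by 0.81 log2 units (adjusted p = 7.08e-05) and above CC036F1 by 0.70 (adjusted p = 0.000369).

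Ly6c1 was 395 and 440.0 with isotype and 353 and 631 with aPD1 in CC001F1, and 358.5 and 289.6 with isotype and 1218 and 593 with aPD1 in CC002F1, where 1 aPD1 tumor held the highest value of all. CC075F1 tumors held 256 and 298 with isotype and 589 and 388 with aPD1. Ly6c1 in the R lines was thus above its highest isotype value of 440.0 in 4 of 6 aPD1 tumors. CC036F1 tumors held 143 and 285 with isotype and 308 and 269 with aPD1 and CC079F1 tumors 135 and 222 with isotype and 242 and 369.6 with aPD1. In CC080F1 Ly6c1 was 525 and 292 with isotype and 241 with aPD1, with the aPD1 tumor lowest. Lines differed in Ly6c1 (adjusted p = 0.00474 by the DESeq2 likelihood ratio test, spread 1.29), and CC002F1 was above CC036F1 by 1.19 log2 units (adjusted p = 0.00604, 9.28% of genes called) and above CC079F1 by 1.29 (adjusted p = 0.00776, 2.95% called). The line test of Ly6c1 did not pass with edgeR (adjusted p = 0.0538) or with the deep libraries alone (adjusted p = 0.195 by DESeq2). It also did not pass without CC036F1 (adjusted p = 0.196 by DESeq2) or without CC079F1 (adjusted p = 0.0705).

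Ly6c2 was 335 and 262 with isotype and 178.5 and 738 with aPD1 in CC001F1, which held both the highest aPD1 tumor and 1 of the lower ones. CC002F1 tumors held 131 and 100 with isotype and 329 and 325 with aPD1 and CC075F1 tumors 179 and 163.5 with isotype and 684 and 208 with aPD1. Both aPD1 tumors were above both isotype tumors in these 2 lines, as for 23.4% and 15.5% of all genes. CC036F1 tumors held 54.3 and 180.3 with isotype and 132 and 188 with aPD1, and CC079F1 tumors 116 and 163 with isotype and 139.8 and 320.3 with aPD1. CC080F1 tumors held 290.3 and 131 with isotype and 212 with aPD1, and isotype and aPD1 overlapped in each of the 3 NR lines. The line test did not call Ly6c2 (adjusted p = 0.201 by the DESeq2 likelihood ratio test, spread 1.42), which makes 4 of the 5 members called, beside 16% of all genes. In all, 75 pairs of lines were tested over the 5 members and 18 passed, against 0.313% to 14.6% of all genes in the same pairs. Of these 18, 16 were between an R and an NR line, each with the R line higher, and Ly6i gave 4 of the 16. Over all genes, pairs of 2 R lines called 0.313% to 0.326% and pairs of 2 NR lines 0.589% to 7.46%. Pairs of an R and an NR line called 0.512% to 14.6% of all genes, in directions that were not counted.

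**Figure D2:**
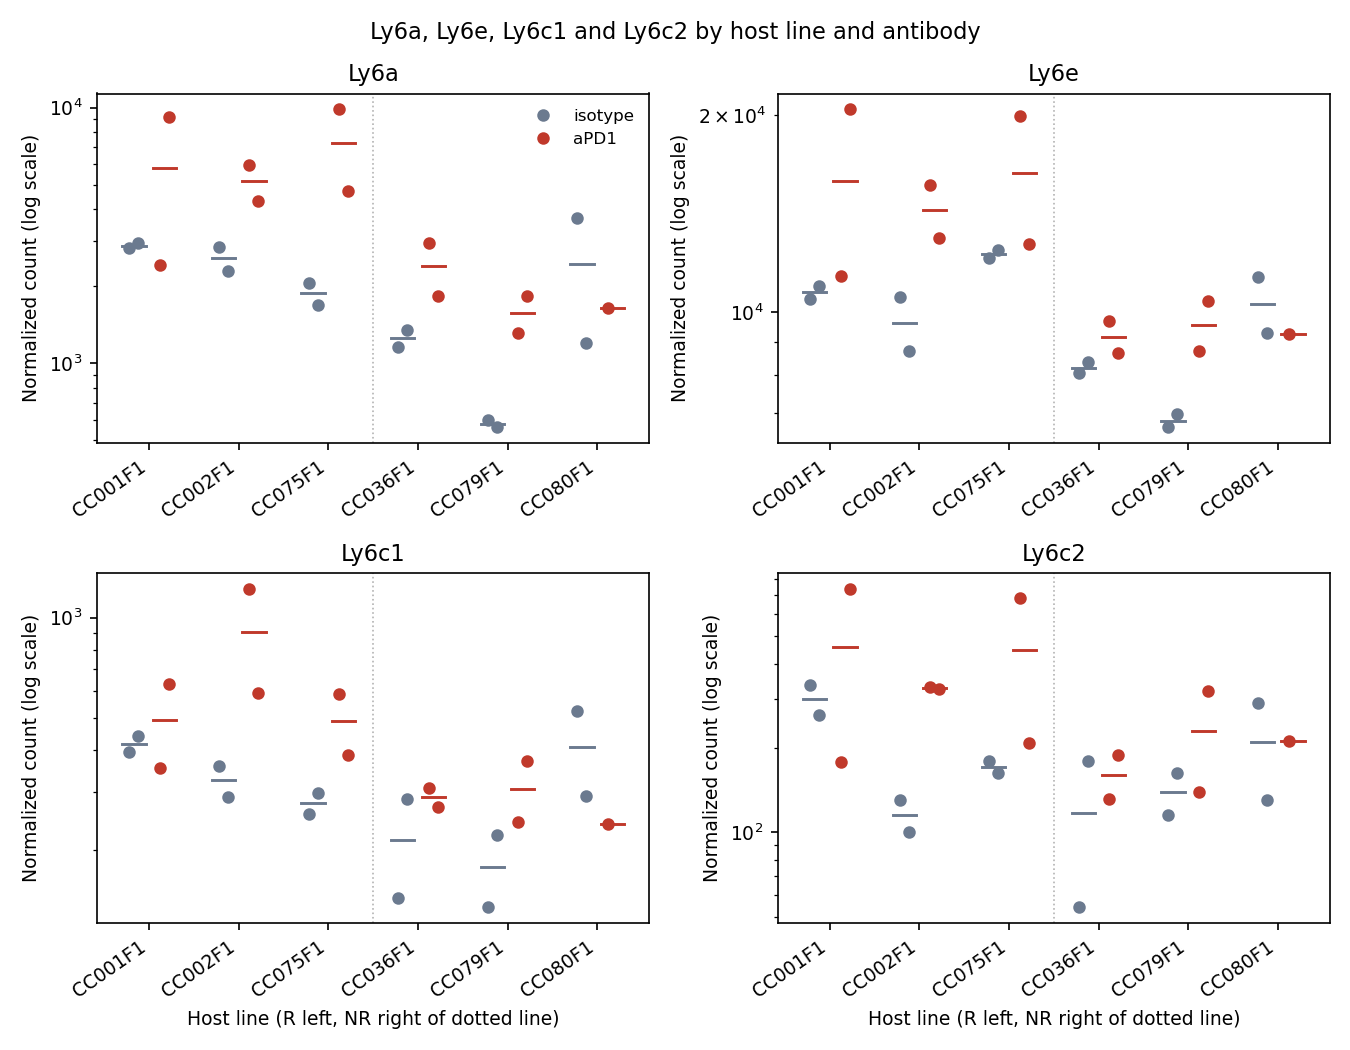
Ly6a, Ly6e, Ly6c1 and Ly6c2 in each of the 23 tumors, as normalized counts on log axes that differ between panels, by host line (R left, NR right of the dotted line) and antibody (color); each point is 1 tumor. Ly6e lies within 6670 to 20385 in all tumors, while Ly6a reaches from 563.0 to 9838 and is lowest in the CC079F1 isotype tumors.

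The comparison of R with NR lines asks whether the members differ between hosts in which MC38 does and does not respond to aPD1. Across the isotype tumors, Ly6i had medians of 45.3 in R (9.53 to 1004, n = 6) and 16.9 in NR (0 to 26.1, n = 6). The groups overlapped, and Ly6i was higher in R by 4.36 ± 1.03 log2 units (SE, adjusted p = 0.00428 by DESeq2). It was the 1 member of 5 that passed, where 4.39% of 14596 genes were called and 1.66% were higher in R. With edgeR's quasi-likelihood test it did not pass (4.40, adjusted p = 0.086). The R mean rests on CC001F1: without that line the difference was 0.87 (adjusted p = 0.556 by DESeq2), and CC002F1 isotype tumors, at 12.9 and 9.53, lay within the range of the NR tumors. Ly6a was 1689 to 2959.5 in R (median 2550.2) and 563.0 to 3687 in NR (median 1182). The Ly6a groups overlapped through 1 CC080F1 tumor, and the difference of 0.78 ± 0.39 did not pass (adjusted p = 0.245). It passed, at 1.33 (adjusted p = 0.00224 by DESeq2), without that tumor, isotype replicate 1 of CC080F1. Ly6e (0.36 ± 0.14, adjusted p = 0.0934), Ly6c1 (0.34 ± 0.28, adjusted p = 0.526) and Ly6c2 (0.32 ± 0.40, adjusted p = 0.709) overlapped between classes and did not pass, and Ly6e also passed without the same CC080F1 tumor (0.46, adjusted p = 0.0142).

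Across the aPD1 tumors 4 of the 5 members were higher in R, where 8.63% of 16634 genes were called and 6.47% were higher in R. Ly6e was 11357 to 20385 in R (n = 6) and 8653 to 10399 in NR (n = 5) without overlap, as for 1.78% of all genes, and its difference was 0.73 ± 0.14 log2 units (adjusted p = 2.59e-05 by DESeq2). Ly6a was 2414 to 9838 in R (median 5357) and 1317 to 2967 in NR (median 1829.7), a difference of 1.66 ± 0.41 (adjusted p = 0.00195). The Ly6a groups overlapped only through the lower CC001F1 tumor, at 2414, and the higher CC036F1 tumor, at 2967. Ly6c1 was 352.8 to 1218 in R (median 591.2) and 240.6 to 369.6 in NR (median 269.3), a difference of 1.14 ± 0.29 (adjusted p = 0.00243). That of Ly6c1 was 0.78 (adjusted p = 0.088) without CC002F1 and 1.151 (adjusted p = 0.05235) without CC036F1, both by DESeq2. Ly6i was 31.6 to 1698 in R (median 161.0) and 18.7 to 58.6 in NR (median 33.9), a difference of 3.71 ± 1.07 (adjusted p = 0.0102) with overlapping groups. That of Ly6i fell to 1.64 (adjusted p = 0.0869) without the line CC001F1, and to 2.60 (adjusted p = 0.136) without its aPD1 replicate 2 alone, and it did not pass with edgeR (3.70, adjusted p = 0.0682), with limma and lines as random effects (2.47, adjusted p = 0.394) or with counts summed per line (3.87, adjusted p = 0.0721). Ly6c2, at 178.5 to 738.2 in R and 131.6 to 320.3 in NR, differed by 1.06 ± 0.42 (adjusted p = 0.101) with overlap.

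Averaged over both antibodies, 4 of 5 members were higher in R and none was lower, beside 16.2% of 16127 genes called, 8.76% higher and 7.48% lower in R. The log2 differences were 4.04 ± 0.74 for Ly6i (adjusted p = 4.39e-06 by DESeq2), 1.22 ± 0.29 for Ly6a (adjusted p = 0.000491), 0.74 ± 0.20 for Ly6c1 (adjusted p = 0.00341) and 0.55 ± 0.10 for Ly6e (adjusted p = 2.76e-06). Ly6c2 differed by 0.69 ± 0.29 (adjusted p = 0.0907). The median over the 5 was 0.74, where that of all genes tested was -0.001. As the members were chosen with results of these tumors in view, these medians are a description and not a test. Without CC001F1 the averaged Ly6i difference was 1.25 (adjusted p = 0.0465 by DESeq2), and with limma Ly6i (2.66, adjusted p = 0.242) and Ly6c1 (0.69, adjusted p = 0.0796) did not pass. The averaged Ly6c1 difference also did not pass without CC036F1 (0.68, adjusted p = 0.0822 by DESeq2). Class is carried by 3 lines on each side, and the DESeq2 fits count tumors of 1 line as independent. Limma used 1 within-line correlation for all genes, 0.0181, and so also treated tumors of a line as nearly independent.

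**Figure D3:**
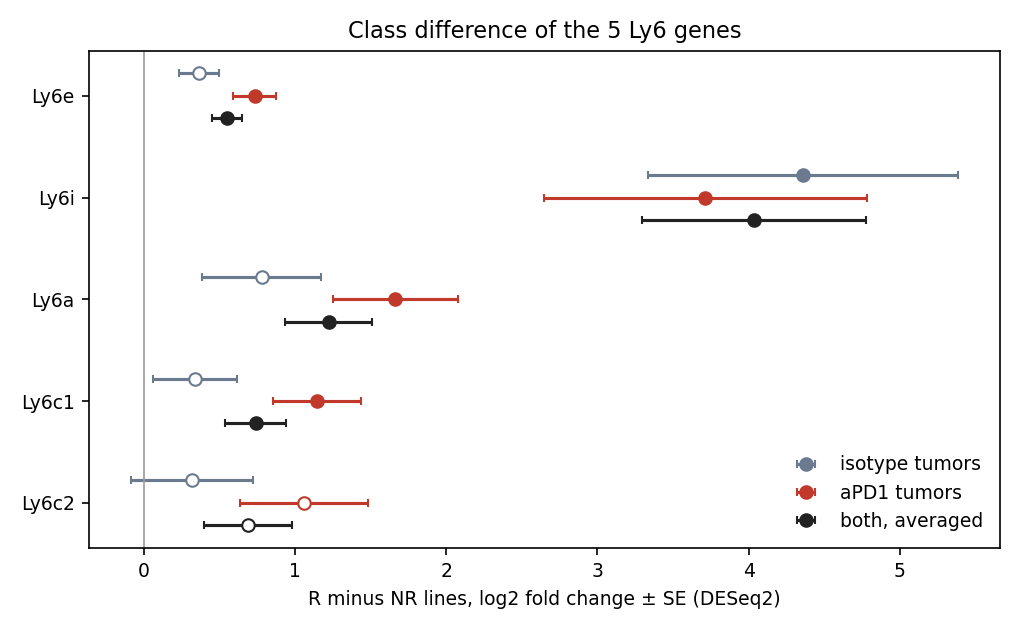
Difference between R and NR lines for each of the 5 members, as log2 fold change with SE from DESeq2, in isotype tumors, in aPD1 tumors and averaged over both (colors); filled points have an adjusted p under 0.05. Ly6i lies farthest from 0 with the widest errors, and Ly6a, Ly6c1 and Ly6e are filled in aPD1 tumors and in the average.

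With aPD1, read as a description only, the 5 members stood higher than with isotype in most lines. Ly6i was higher in the mean in 6 of 6 lines, without overlap in 5, from 0.16 log2 units in CC080F1 and 0.18 in CC001F1 to 2.19 in CC002F1 and 2.81 in CC079F1. The CC079F1 value includes the isotype tumor at 0, with 1 added to each value before the log. In the same lines 14.9% to 30% of all genes had every aPD1 tumor above every isotype tumor. Ly6a was higher in 5 of 6 lines, most in CC075F1 (1.87) and CC079F1 (1.42), and stood at -0.35 in CC080F1, which has 1 aPD1 tumor. Ly6c1 was higher in 5 lines, most in CC002F1 (1.4), with -0.70 in CC080F1, and Ly6c2 in 6, most in CC002F1 (1.51) and CC075F1 (1.14). Ly6e was higher in 5 lines by 0.16 to 0.57, with -0.15 in CC080F1. The DESeq2 estimates over all lines were 1.35 ± 0.37 (SE) for Ly6i, 1.09 ± 0.26 for Ly6a, 0.83 ± 0.29 for Ly6c2, 0.59 ± 0.19 for Ly6c1 and 0.37 ± 0.10 for Ly6e. In R lines they ran from 0.52 ± 0.13 (Ly6e) to 1.51 ± 0.52 (Ly6i), and in NR lines from 0.21 ± 0.13 (Ly6e) to 1.15 ± 0.58 (Ly6i).

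Whether the aPD1 difference itself was unequal between R and NR lines was tested as an interaction. None of the 5 members passed, beside 0.038% of 26350 genes. The estimates, R minus NR, were 0.51 ± 0.54 (SE) for Ly6a, 0.57 ± 0.38 for Ly6c1, 0.74 ± 0.56 for Ly6c2, 0.31 ± 0.18 for Ly6e and 0.36 ± 0.78 for Ly6i (adjusted p = 0.846 to 1 by DESeq2).

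Per kilobase of the principal transcript, Ly6e made up 55.8% of the summed normalized counts of the 5 genes on average over the 23 tumors, and Ly6a 34.7%. Ly6c1 followed with 4.88%, Ly6c2 with 3.05% and Ly6i with 1.53%. In CC001F1 tumors Ly6i took 7.08% (5.95% to 8.89%), above the mean shares of Ly6c1 (4.46%) and Ly6c2 (3.40%) there, and in the other 5 lines its mean share was 0.204% to 0.606%. The order of the lower 2 depends on the length used: per kilobase of all annotated exons Ly6i averaged 2.39% and Ly6c2 1.48%. Ly6a took its lowest share in CC079F1 (22.8%), where Ly6e took its highest (67.6%).

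**Figure D4:**
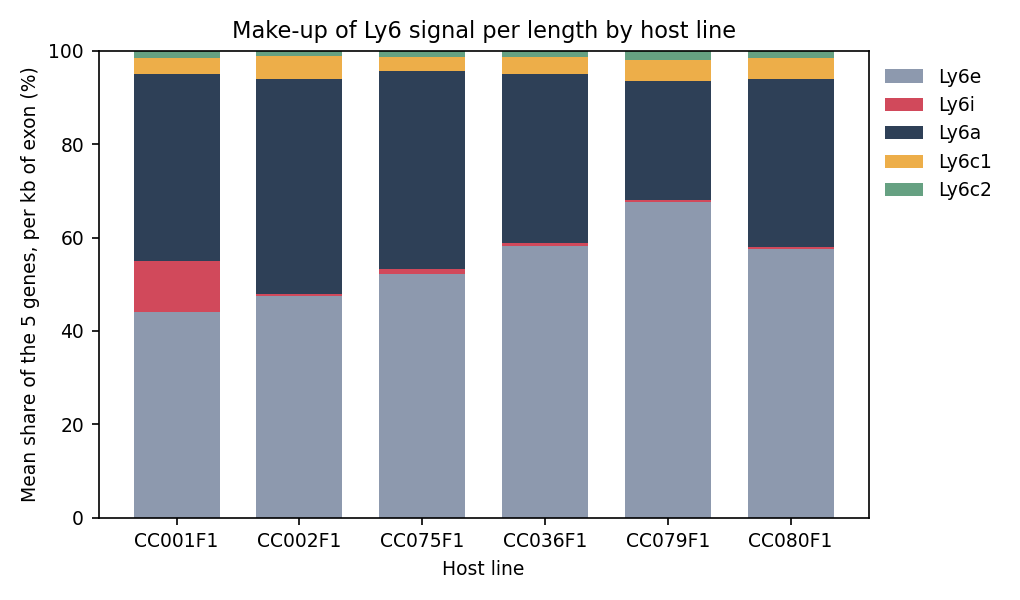
Mean share of each of the 5 genes in their summed normalized counts per kilobase of annotated exons (percent, stacked to 100), by host line, over 4 tumors a line and 3 in CC080F1. Ly6e and Ly6a fill most of each bar, and Ly6i is visible as 10.97% in CC001F1.

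Since Ly6c1 and Ly6c2 share reads and a library, their ratio was compared between classes. The log2 ratio of Ly6c2 to Ly6c1 was -0.75 ± 0.55 (SD, n = 23) and ran from -1.89 to 0.23. By line it was lowest in CC002F1, at -1.44 ± 0.42 (SD, n = 4), and highest in CC079F1, at -0.42 ± 0.28 (SD, n = 4), next to CC001F1 at -0.43 ± 0.54 (SD, n = 4). In isotype tumors the ratio was -0.89 ± 0.51 in R and -0.79 ± 0.44 in NR (SD, n = 6 each), and the difference did not pass a two-sided exact permutation test (p = 0.706, adjusted 0.9 over 4 tests). In aPD1 tumors it was -0.70 ± 0.81 in R (n = 6) and -0.59 ± 0.44 in NR (n = 5, exact permutation p = 0.801, adjusted 0.9). With line means as the unit, 3 against 3, the exact permutation p was 0.9 and 0.7, where the smallest possible is 0.1. The differences between classes, -0.10 and -0.11, were smaller than the spread within a line.

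Other genes of the family gave few calls. Of 21 other Ly6 and uPAR genes listed for the chromosome 15 cluster, 11 were in the table and 8 were fitted. Of these, 4 were given an adjusted p in the average over both antibodies, and 1 was higher in R, 2010109I03Rik (2.16 ± 0.65, adjusted p = 0.0100 by DESeq2), a neighbor whose mean normalized count was 50 in CC001F1 and 3.69 to 14.2 in the other lines. The line test called 2010109I03Rik (adjusted p = 0.00445 by DESeq2) and Gpihbp1, which anchors lipoprotein lipase on endothelium (adjusted p = 9.63e-07). Ly6g, the marker of neutrophils, and Ly6f, the nearest named members beyond Ly6c2, had 4 counts each over all 23 libraries and were not fitted. Of 18 listed genes of the family on other chromosomes 17 were fitted, but DESeq2 gave an adjusted p to 3 or 4 of them in the class tests, of which none passed, and to 6 in the line test, of which Cd59a passed (adjusted p = 0.0128). The others were given no adjusted p.

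Beside the members, genes that interferon-gamma induces were higher in R lines. Of 15 listed, 14 were higher in R on average and none lower, with Cxcl9, a chemokine for T cells, at 1.57 ± 0.31 (adjusted p = 2.13e-05 by DESeq2), Ciita, the regulator of MHC class II, at 1.53 ± 0.28 (adjusted p = 4.33e-06) and the GTPase Gbp5 at 1.05 ± 0.20 (adjusted p = 7.54e-06). In isotype tumors 1 of these 15 passed and in aPD1 tumors 12. Of 15 type I interferon genes 1 passed on average, the antiviral gene Mx1 (1.13, adjusted p = 0.0157), while in isotype tumors 0 were higher and 2 lower in R and in aPD1 tumors 5 were higher and 0 lower. T cell markers were higher in R in 6 of 7, led by Cd8a (1.78 ± 0.39, adjusted p = 0.000203), and macrophage markers in 5 of 8, led by C1qb (0.66 ± 0.10, adjusted p = 3.19e-08). Of the 7 monocyte markers 1 was higher, Plac8 (0.83 ± 0.24, adjusted p = 0.00725), and 1 lower, F13a1 (-1.08 ± 0.21, adjusted p = 1.22e-05). On average over both antibodies, endothelial markers were higher in 1 of 9 and fibroblast markers lower in 2 of 6. Skeletal muscle genes were higher in 2 of 5 in that average. Of 5 neutrophil markers 4 were given an adjusted p there and 1 was higher, while the median log2 difference of the 5 was -0.70. Of 4 B cell and 5 tumor cell or epithelial markers none passed in the average. In aPD1 tumors 3 of the 4 B cell markers were lower in R (median log2 difference of the 4 -2.99), and their summed counts were 46.2 to 182.3 in R and 136.6 to 3142 in NR. The part of these cell types in the class differences of the Ly6 genes was not tested.

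Across the 23 tumors, which share libraries, hosts and antibodies, the members varied together to differing degrees. Pearson's r of log2 values was highest for Ly6a with Ly6e (0.92) and lowest for Ly6i with Ly6c1 (0.56). After the mean of each line and antibody group was taken off, Ly6a with Ly6e was still highest (0.91), and the lowest was Ly6i with Ly6a (0.36, against 0.63 before). With the 15 interferon-gamma genes the median r was 0.88 for Ly6a, 0.84 for Ly6e, 0.76 for Ly6c1, 0.70 for Ly6i and 0.69 for Ly6c2. Over the 13159 genes whose normalized count averaged 50 or more, those most like Ly6a were Fcgr4 (0.969), Tgtp2 (0.968) and Hk3 (0.960), and those most like Ly6e were Il2rg (0.949), Trpv2 (0.948) and Fgl2 (0.947). Ly6i was most like H2-DMb1 (0.823), Ass1 (0.816) and Itgax (0.811), but within groups the genes most like it were others, Enah (0.869), Nckipsd (0.869) and Nudt9 (0.867). On this log2 scale the CC079F1 isotype tumors held 0 and 4.38 for Ly6i, where its within-group SD was 1.13. The within-group r of Ly6i, also that with Ly6a, therefore rest largely on this group and its tumor without counts. Ly6c2 was most like Plac8 (0.907), Ifi205 (0.888) and Ssh3 (0.863), and Ly6c1 like Serping1 (0.860), Naaa (0.849) and Mapkapk3 (0.847).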

How the data were processed

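Per the authors' methods, RNeasy RNA and KAPA mRNA HyperPrep libraries were sequenced as 100 bp paired-end reads, which bowtie v1.2.3 aligned to founder transcriptomes (GENCODE vM23, GRCm38), and gbrs gave expected counts per gene over 8 founder haplotypes. The deposited expected counts (16.95% of values not whole) were rounded. Reads that paralogs share were divided by that step, and whether counting used strand is not given in the sources used here. Identifiers were matched to GENCODE vM21 (26681 of 26869). The 26350 genes with at least 5 summed counts were fitted over all 23 tumors with DESeq2 1.42.0 (R 4.3.3), at an adjusted p under 0.05: class by antibody, line plus antibody, and line plus antibody per class. Line pairs came from the second model. Pearson's r used log2(normalized count + 1). Scripts were tested on simulated data. Alternatives were edgeR 4.0.16, limma 3.58.1, other scalings, filters, depths and units, and leaving out each tumor or, chosen after seeing the data, each line. Members and lists (interferon-gamma, type I interferon, cell type markers, other Ly6 genes) were chosen with earlier results of these data known. The 5 members are always named, with up to 3 called genes a list and direction and the 3 genes most like each member.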

Additional observations from a re-analysis of the deposited data

Results flagged for a closer look

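In 7 of 45 groups of 4 to 6 tumors, 1 tumor lay farther from the rest than the usual limit for such groups. That limit gives about 1 in 20 by chance only for normal values in independent groups. Here each tumor was in a line group and a class group, and line groups mixed antibodies. The count of 7 therefore cannot be set against that rate. Both Ly6a and Ly6e singled out aPD1 replicate 2 among the 4 CC001F1 tumors, with Ly6a at 9177.7 (next 2959.5) and Ly6e at 20385.4 (next 11357.0). The same tumor held the highest Ly6i of the 6 R tumors with aPD1, at 1698.0 (next 625.8). Aside from CC001F1, aPD1 replicate 1 of CC075F1 stood above the other tumors of its line with Ly6e at 19916.5 (next 12721.6) and Ly6c2 at 683.7 (next 207.9). Among the 6 NR tumors with isotype, replicate 1 of CC080F1 held 3687.4 for Ly6a (next 1345.1). Ly6c1 reached 1218.2 in aPD1 replicate 1 of CC002F1, far above the other R tumors with aPD1 (next 631.1).

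In 1 line the aPD1 tumor lay on the opposite side of the isotype tumors from other lines. The CC080F1 aPD1 tumor was below both isotype tumors of its line for Ly6c1 (-0.70 log2 units), while in CC002F1, CC075F1 and CC079F1 both aPD1 tumors were above both isotype tumors. For Ly6e it was at -0.15, while in the other 5 lines every aPD1 tumor was above the isotype tumors. In each of those 5 lines 14.9% to 23.4% of all genes had every aPD1 tumor above the isotype tumors. CC080F1 has 1 aPD1 tumor, and these differences between lines were not tested.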

How the results depend on the processing

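Of the 5 members, 1 passed the isotype class test in the report's DESeq2 fit. That count was 0 with edgeR, with the deep libraries alone, with limma, where line was a random effect, with counts summed per line, and without CC001F1, 2 with isotype tumors alone and 3 without CC080F1. Leaving out each tumor gave 1 to 3 (3 without CC080F1 isotype replicate 1, as Ly6a and Ly6e joined). With edgeR the Ly6i difference was 4.40 (adjusted p = 0.086) and with limma 2.84 (adjusted p = 0.606). In aPD1 tumors 3 to 5 passed over the tumors left out, 3 without CC001F1 aPD1 replicate 2, and Ly6i did not pass with edgeR (3.70, adjusted p = 0.0682). In the average 2 of 5 passed with limma, where 4 did in the report, and 4 to 5 over the tumors left out. The line count of 4 was 2 with deep libraries and 2 without CC079F1, and 4 to 5 over the tumors left out. No member passed the interaction under any setting or tumor left out. Where a count changed with the tool, scale or line, the cause was not tested.

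The directions of Ly6c2 in isotype tumors turned with deep libraries (-0.10) and without CC001F1 (-0.13). The Ly6i interaction turned with deep libraries (-0.11), without CC002F1 (-0.0905) and without CC079F1 isotype replicate 2 (-0.0587), the other tumors left out giving up to 0.74. The Ly6c2 to Ly6c1 ratio difference in aPD1 tumors was 0.0229 with deep libraries, and over the tumors left out it was -0.30 to 0.13 in aPD1 and -0.23 to 0.0295 in isotype tumors. The median aPD1 difference of the members was 0.65 to 0.99 over all lines, 0.88 to 1.41 in R and 0.18 to 0.72 in NR when tumors were left out. Over the other settings the NR median was 0.08 to 0.58. The lowest NR differences there had turned for Ly6c1 (-0.083) and Ly6c2 (-0.13). With a line left out, the lowest NR difference of Ly6c1 was -0.037.

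Differences between replicates 1 and 2 had r of -0.36 to 0.34 between groups (median -0.01, 55 pairs of groups, 12 above 0.1). These values do not settle whether replicate numbers pair tumors. All shallow libraries but CC036F1 isotype replicate 1 were replicate 2, so replicate number and depth cannot be fully told apart. With the replicate number as a block, Ly6i in isotype tumors was 4.38 (adjusted p = 0.00481), the number of members called was unchanged in each test, and genes called in the interaction went from 10 to 167. Over all genes, calls were 0 to 828 in isotype tumors over 12 settings (641 in the report), 852 to 1448 in aPD1 tumors over 12 (1435), 1522 to 2621 averaged over 11 (2619) and 1663 to 3064 by line over 9 (3065). The 6 shallow libraries, 4 of them NR, limit the precision of Ly6i, which stood below 60 in all NR tumors. Pairs of lines and shares were computed once.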
